A study of Homo sapiens with 12 samples.

Results

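The replication-dependent histone genes encode the linker histone H1 and the core histones H2A, H2B, H3 and H4 that package newly made DNA. Members were taken by symbol (H1-1 to H1-6 and the numbered H2AC, H2BC, H3C and H4C genes). The rule itself uses no measured value, but it was set with earlier results of these data known. The rule found 69 members among 40929 gene symbols: 6 of H1, 17 of H2A, 18 of H2B, 13 of H3 and 15 of H4. RNA came from MDA-MB-231, an established triple-negative breast cancer cell line, kept for 48 h in RPMI medium with 10% serum. NG cells had 10 mM glucose, CAR cells 10 mM glucose with 25 µM cariporide, LG cells 5 mM glucose, and LGCAR cells 5 mM glucose with 25 µM cariporide. Cariporide is an inhibitor of the sodium-proton exchanger NHE1. Each group had 3 libraries, and the labels do not say whether these came from separate cultures, so p-values measure the spread between libraries, which may be technical.

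As background, a cell makes these histones chiefly in S phase, when their mRNAs build up together and are then quickly destroyed. The mRNAs lack introns and end in a conserved stem-loop in place of a poly(A) tail. The stem-loop is bound by SLBP, which guides processing, export, translation and decay, and transcription of the clusters depends on NPAT, a substrate of cyclin E with CDK2. The genes stand in clusters, and several are near copies of each other.

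The stem-loop is the sequence that sets these mRNAs apart, and it was searched in GENCODE release 29 transcripts within 100 bases after the stop codon. Of the 31 members whose longest transcript there held at least 60 such bases, 28 had it, and 29 of the 69 members had it in all. H2BC11, H2BC18 and H3C6 held at least 60 such bases without it. For 38 members the longest transcript held fewer. For H2BC18 only transcripts with the 387-base reading frame described below were searched. A stem-loop in any other transcript of this gene would be missed. Where found, the stem-loop began 23 to 68 bases after the stop codon. The same letters occurred in any transcript of 38 of 58721 GENCODE genes, or 0.0647%, with the members themselves included in the 38. Its 5 forms are shown by 1 gene each, with the 6-base stem arms in capitals and the 4-base loop in lower case:
H2BC21: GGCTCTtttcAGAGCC
H4C2: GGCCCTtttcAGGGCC
H2BC5: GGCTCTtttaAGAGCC
H4C15: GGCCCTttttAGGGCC
H2AC11: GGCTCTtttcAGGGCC
The form of H2BC21 was shared by 16 members of H2A, H2B and H3, that of H4C2 by 5 H4 genes, that of H2BC5 by 4 members and that of H4C15 by 3 H4 genes. All arms pair base for base except those of H2AC11.

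Members differ in how well a read can be placed. Exactly 4 pairs had the same coding sequence from start to stop: H2AC18 with H2AC19, H3C14 with H3C15, H4C11 with H4C12, and H4C14 with H4C15. The first 60 coding bases show this for H4, with bases that differ from H4C14 in capitals:
H4C14: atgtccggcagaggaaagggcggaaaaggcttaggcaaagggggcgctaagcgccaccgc
H4C15: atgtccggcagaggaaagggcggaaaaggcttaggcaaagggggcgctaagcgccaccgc
H4C11: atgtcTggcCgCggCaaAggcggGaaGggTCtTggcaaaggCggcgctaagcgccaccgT
H4C12: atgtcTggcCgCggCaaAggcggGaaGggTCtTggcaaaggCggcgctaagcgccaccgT
H4C2: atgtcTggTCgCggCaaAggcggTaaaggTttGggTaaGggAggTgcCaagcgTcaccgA
H4C11 differed from H4C14 at 47 and H4C2 at 59 of the 312 coding bases. The H2A copies are shown with H2AC20, whose differences from H2AC18 are in capitals:
H2AC18: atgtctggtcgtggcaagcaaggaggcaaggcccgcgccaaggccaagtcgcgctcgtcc
H2AC19: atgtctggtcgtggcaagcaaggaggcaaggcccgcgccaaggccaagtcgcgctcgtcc
H2AC20: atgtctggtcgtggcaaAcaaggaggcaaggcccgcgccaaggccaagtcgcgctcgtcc
Between members of equal coding length, identity had a median of 85.2% in H2A, 89.8% in H2B, 85.3% in H3 and 83.7% in H4. No H2B pair of equal coding length was identical, and the closest reached 94.0%. H2BC18, taken with 387 coding bases, and H2BC1, with 384, matched no other H2B gene in length, so they were not compared. For H2BC18 this was the first reading frame near the class's length found in its 5 transcripts. Whether it is the gene's main histone frame was not checked, so its length may come from that choice.

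Libraries held 18069004 to 24837409 counts, and the members held 3352 to 4834 of them, or 0.0164% to 0.0218%. Levels are CPM, counts scaled to a library size of 1000000 after edgeR's TMM scaling. Of the marker genes of this line, VIM, CD44, EGFR, AXL and CAV1 were high, PGR was at 0 in all libraries and ESR1 at 0 to 4 counts. ERBB2, EPCAM, GATA3 and CDH1, listed as low or absent, had counts in all 12 libraries, up to 1532, 317, 318 and 44. Of markers of other cell types, CD3E was at 0, DCN and CDH5 reached no more than 2 counts, and COL1A1, PDGFRB, CD14 and PECAM1 had counts throughout, up to 229, 284, 88 and 57. Ribosomal RNA took 7.10% to 11.5% of counts. Whether RNA was selected by poly(A) tail or by removal of ribosomal RNA was not stated in the labels, and for mRNAs without a tail that step bears on every level below. In bulk RNA, fewer cells making histones and less RNA per cell cannot be told apart.

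Of the 69 members, 52 had a count in at least 1 library and 37 had counts in every library. The 17 at 0 in all 12 libraries included H1-3, H1-5 and H1-6 of the linker histones and H4C4, H4C5, H4C6, H4C7 and H4C13 of H4. Another 9 had 1 to 20 counts over all libraries. After the filter on low counts 40 members were tested: 2 of H1, 11 of H2A, 11 of H2B, 7 of H3 and 9 of H4. Of these, 26 were above the filter's level of 0.451 CPM in every library, and 8 were above it throughout no more than 1 group.

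The counts of the 4 identical pairs moved between copies from library to library. H2AC18 had 219, 203 and 188 counts in NG, 206, 0 and 0 in CAR, 163, 143 and 179 in LGCAR, and 201, 0 and 186 in LG. H2AC19 had 208 counts in CAR 2, 174 in CAR 3 and 192 in LG 2, and 0 in the other 9 libraries. Thus 1 copy of the pair was at 0 in every library. The pair's sum ran from 143 to 219 counts, with a coefficient of variation of 9.61% over the libraries, against 61.3% for H2AC18 and 181.9% for H2AC19.

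The other pairs behaved alike. H3C14 had 79 counts in NG 3 and 0 elsewhere, and H3C15 was at 0 in NG 3 and had 51 to 101 counts elsewhere. H4C14 had 58 to 93 counts in 6 libraries and 0 in the other 6, while its sum with H4C15 ran from 212 to 313. H4C11 and H4C12 split their 66 to 108 counts in changing parts. The coefficient of variation of the sum was 17.0%, 8.46% and 14.05% for these pairs. Values of a single copy are therefore uncertain, and the class sums and the pair sums do not depend on the split.

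**Figure D1:**
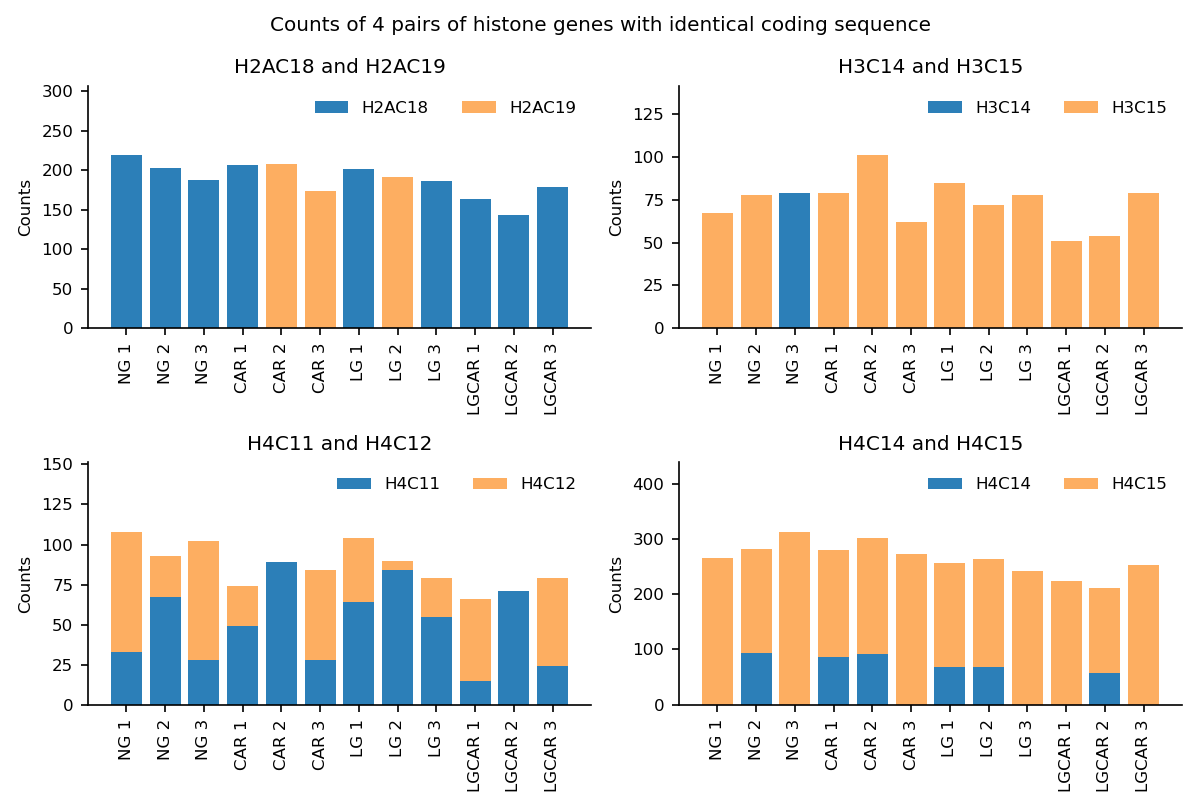
Counts of each copy of the 4 identical pairs (stacked bars, linear axis from 0) in the 12 libraries. In the H2AC18 and H2AC19 panel each bar has 1 colour: H2AC19 holds the counts in CAR 2, CAR 3 and LG 2, and H2AC18 in the other 9 libraries.

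All classes were highest on average in NG. The sum over all 69 members was 212 ± 6.998 CPM in NG (SD, n = 3), 176 ± 7.18 in CAR, 186 ± 19.4 in LGCAR, and 183 ± 5.39 in LG. These are 82.8%, 87.8% and 86.1% of the NG mean. NG libraries had 211.9, 219.4 and 205.5, CAR 172.0, 184.1 and 171.3, LG 177.2, 188.0 and 182.8, and LGCAR 164.7, 192.8 and 201.8. The lowest NG library was thus above all 9 others, and LGCAR spread over the range of CAR and LG and beyond it, with LGCAR 1 lowest of all. Class sums were compared by the overlap of the libraries, without a test.

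Linker histone H1, which binds DNA between nucleosomes, summed to 46.7 ± 1.16 CPM in NG, 39.0 ± 1.46 in CAR, 41.5 ± 4.01 in LGCAR, and 43.4 ± 1.22 in LG. All 9 libraries outside NG were below the 3 NG libraries. H2A, which pairs with H2B, was 27.0 ± 2.90 in NG, 22.7 ± 2.41 in CAR, 23.7 ± 3.49 in LGCAR, and 23.4 ± 1.34 in LG, and each group overlapped with NG.

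H2B had the most counts of any class, with 92.7 ± 4.83 CPM in NG, 77.9 ± 0.644 in CAR, 82.7 ± 7.05 in LGCAR, and 79.8 ± 3.87 in LG. H3 was 16.2 ± 2.29 in NG, 11.5 ± 1.43 in CAR, 13.01 ± 2.56 in LGCAR, and 12.1 ± 1.34 in LG. H4, which forms the tetramer core with H3, was 29.7 ± 0.591 in NG, 24.7 ± 1.350 in CAR, 25.6 ± 3.08 in LGCAR, and 23.9 ± 0.278 in LG. H2B and H4 in all 3 other groups were below NG without overlap, and so was H3 in CAR and LG, while H3 in LGCAR overlapped. For H2B in LGCAR the margin was small, with 87.1 CPM in LGCAR 2 and 87.5 in NG 1. The log2 ratio to NG was -0.49 for H3 in CAR and between -0.25 and -0.27 for the other classes. By the mean log2(CPM + 0.5) over tested members, single copies included, it was -0.17 for H3 and -0.37 for H2B. The H3 mean includes H3C15, at 0 in NG 3, where its copy H3C14 held the counts. H3C15 alone had a fitted log2 fold change of 0.56 in CAR, and the pair summed had -0.04. The order of the classes by this mean is therefore uncertain. LGCAR overlapped with LG and with CAR in every class.

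Single genes carried much of some sums. H1-2 gave 63.1% of the H1 counts, H2BC12 52.0% of the H2B counts, H4C15 39.7% of the H4 counts, H3C3 30.7% of the H3 counts and H2AC18, even with its counts in 3 libraries under its copy, 27.2% of the H2A counts. These are shares of counts within a class. The RefSeq spans of H2BC12 (chr6:27138293-27146858) and H4C15 (chr1:149844488-149861240) far exceeded their coding lengths of 381 and 312 bases. So did those of H2BC4, H2BC5, H2BC18 and H2BC21. Counts per gene do not tell which transcripts of these genes were counted, nor whether they had a tail. Without H1-2 the H1 ratio of LGCAR to NG was 0.01 in place of -0.17 on the log2 scale.

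**Figure D2:**
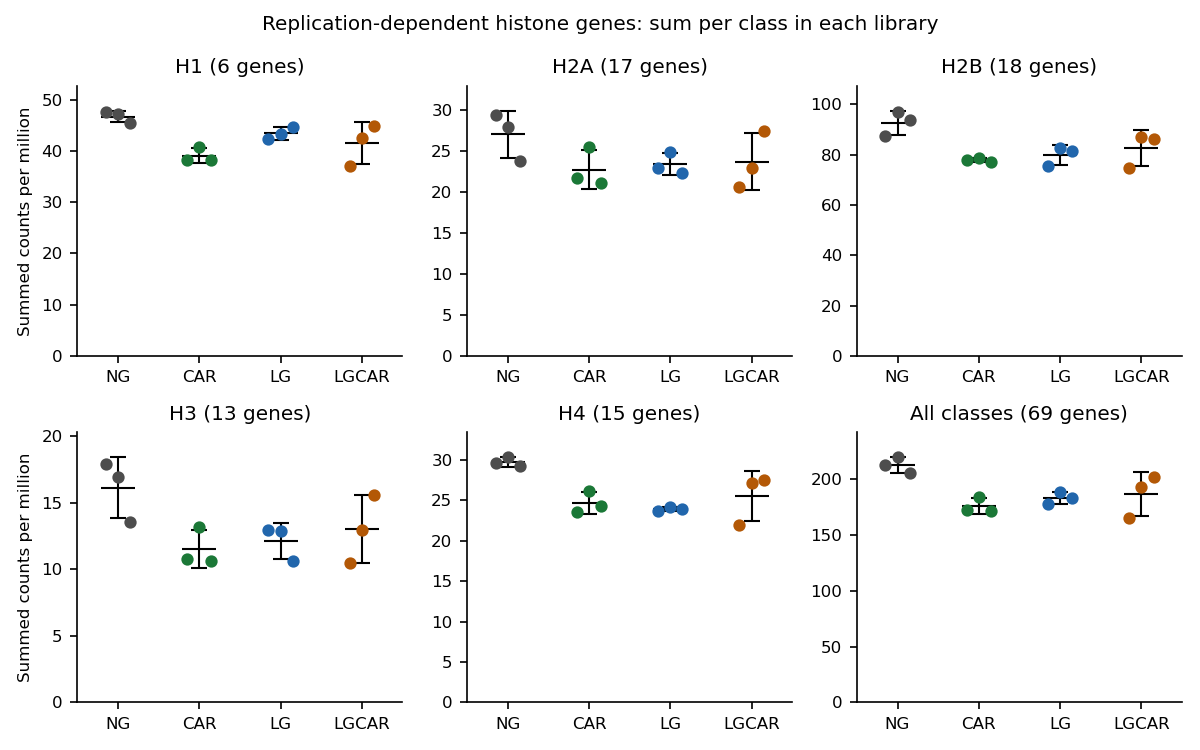
Summed CPM (linear axis from 0) of each histone class in the 4 groups, with 1 point per library and bars for the mean and SD of 3 libraries. For all classes together the NG libraries sit at 205.5 and above and the other 9 at 201.8 and below.

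Tests of single genes used edgeR's quasi-likelihood test over all 15104 genes that passed the filter, with Benjamini-Hochberg adjustment and a threshold of 0.05. The comparisons of CAR, LG and LGCAR with NG share the NG libraries, so they are not independent of each other.

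Cariporide at 10 mM glucose (CAR against NG) left no member past the threshold, where 0% of all tested genes passed. Members lay low nonetheless: 34 of 40 had a negative log2 fold change, with a median of -0.42 against 0.00 over all tested genes. Over the 8 members with a mean of at least 5 CPM, all negative, the median was -0.31. Without CAR 1 the members' median was -0.29, with 34 of 41 negative. At an unadjusted p under 0.05, 14 members were lower and 0 higher, where 2.25% of all genes were lower and 2.28% higher. In 15 members all CAR libraries were below all NG libraries, against 4.67% of all genes, and 0 members lay above, against 4.44%. The lower count is thus several times what the share of all genes would give, though members are not independent of each other. DESeq2 called 1 member, H2AC19, which is a switching copy, and limma-voom called 0. With the copies of each pair summed, edgeR called 0 and the median was again -0.42.

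By class, all 11 tested H2B genes had a negative log2 fold change in CAR, with a median of -0.45. The count was 2 of 2 for H1, 9 of 11 for H2A, 6 of 7 for H3 and 6 of 9 for H4. H3C2 had 6.16, 4.64 and 4.46 CPM in NG and 2.94, 3.25 and 2.73 in CAR. The groups did not overlap, and its log2 fold change of -0.77 (SE 0.180) had an adjusted p of 0.89 with edgeR. H3C3, a gene for the same histone, had 6.21, 5.66 and 3.78 in NG and 3.18, 3.64 and 3.36 in CAR, again without overlap, with a log2 fold change of -0.62 (SE 0.186).

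H4C2 showed the same order, with 3.32, 2.90 and 2.72 CPM in NG and 2.67, 1.91 and 1.86 in CAR. H1-4 had 18.8, 16.8 and 14.8 in NG and 12.8, 14.5 and 13.1 in CAR. Neither overlapped. The members with the most counts did not all show it: H2BC12 had 43.0, 48.7 and 49.5 in NG and 45.5, 40.1 and 42.7 in CAR, which overlap, and H2BC5 had 11.1, 11.7 and 11.4 in NG and 10.6, 11.8 and 11.02 in CAR.

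Lower glucose alone (LG against NG) left 1 member past the threshold, in a comparison where 1.73% of all genes passed and 0.728% fell. This was H2BC18, an H2B gene of the chromosome 1 cluster (GRCh38.p14, chr1:149782689-149812370). It had 8.72, 8.90 and 7.10 CPM in NG, 4.47, 6.11 and 5.92 in CAR, 6.78, 7.13 and 6.70 in LGCAR, and 6.28, 5.05 and 5.75 in LG. All LG libraries lay below all NG libraries. H2BC18 fell by 0.53 (log2, SE 0.131, adjusted p = 0.0495 with edgeR). Leaving out any 1 of the 6 libraries gave adjusted p-values between 0.056 and 0.21. The call was also lost with limma-voom (0.055), with the groups compared alone (0.084) and with the ribosomal RNA share (0.052) or RN7SK (0.57) as a covariate.

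In LG 34 of 40 members had a negative log2 fold change, with a median of -0.34 against 0.01 over all genes, and again all 11 tested H2B genes did. Over the 8 members with a mean of at least 5 CPM, all negative, the median was -0.18. In 10 members LG lay wholly below NG, against 9.51% of all genes, and 0 lay above, against 9.86%. At an unadjusted p under 0.05, 8 were lower and 0 higher, against 7.07% and 8.18% of all genes. H3C2 had 3.43, 3.91 and 2.78 CPM in LG, below NG without overlap, with a log2 fold change of -0.59 (SE 0.178, adjusted p = 0.12 with edgeR).

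**Figure D3:**
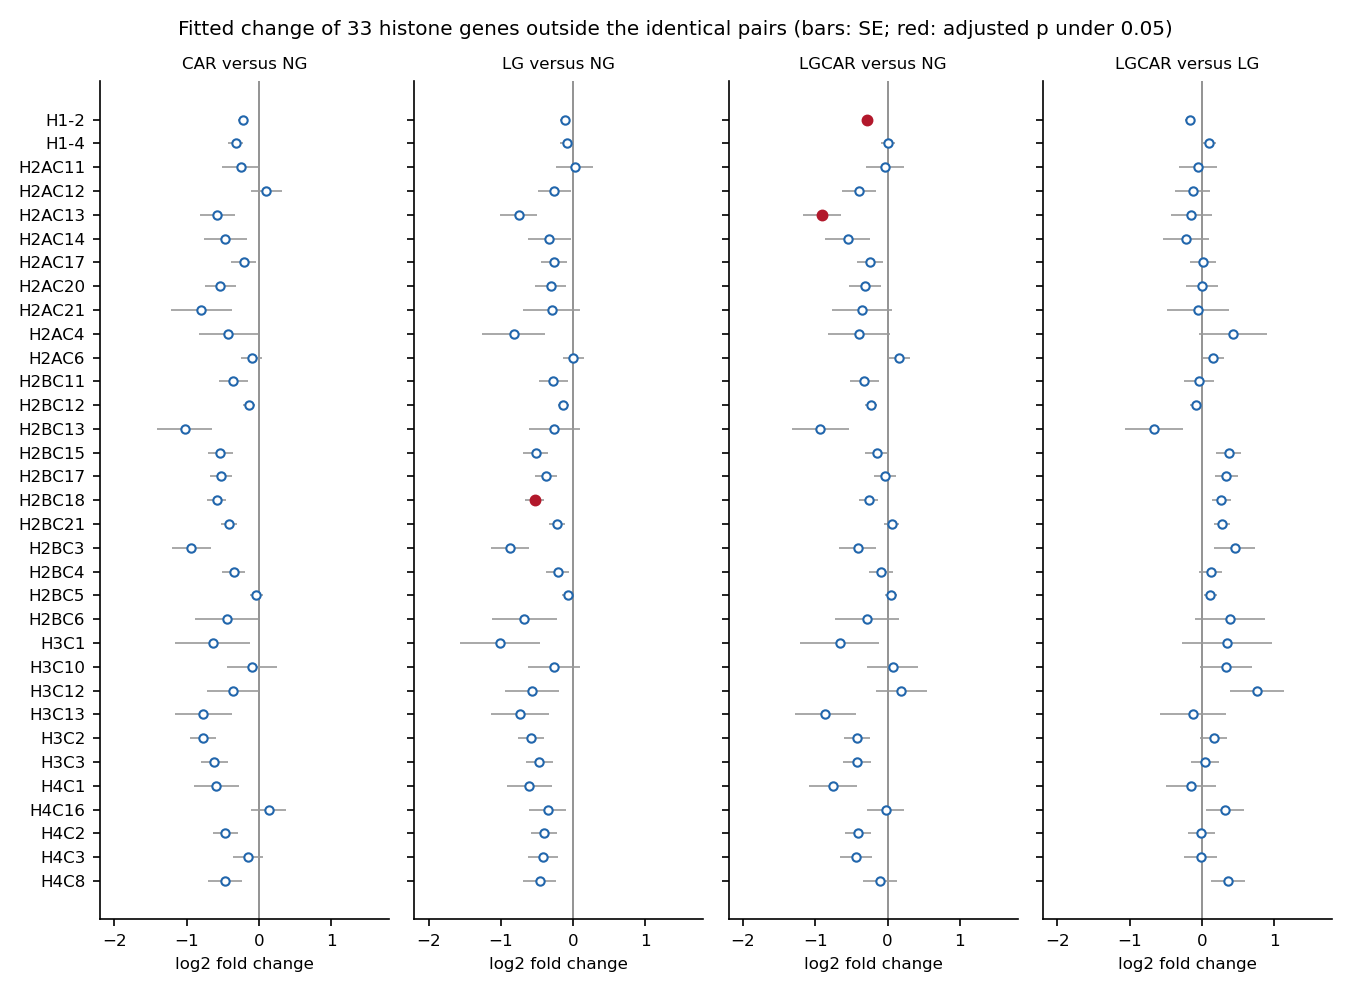
Fitted log2 fold changes of the 33 tested members outside the identical pairs in 4 comparisons, with bars for the SE and filled red points for an adjusted p under 0.05. In CAR and in LG 31 of 33 lie left of 0, in LGCAR against NG 27, and in LGCAR against LG 14.

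Both changes together (LGCAR against NG) left 2 members past the threshold, both lower, where 8.75% of all genes passed, 4.12% lower and 4.63% higher. H1-2, a linker histone gene (chr6:26055740-26056470), had 28.7, 30.4 and 30.5 CPM in NG, 25.4, 26.1 and 25.0 in CAR, 22.6, 24.7 and 26.5 in LGCAR, and 26.9, 26.9 and 28.96 in LG. LGCAR lay below NG without overlap. H1-2 fell by 0.28 (log2, SE 0.0655, adjusted p = 0.0205 with edgeR).

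H2AC13, a weakly counted H2A gene (chr6:27808173-27808667), had 2.04, 1.21 and 1.32 CPM in NG and 0.786, 0.730 and 0.904 in LGCAR, from 13 to 43 counts a library. The groups did not overlap, and it fell by 0.91 (log2, SE 0.264, adjusted p = 0.0441 with edgeR). Leaving out any 1 of the 6 libraries ended its call, as did limma-voom (adjusted p = 0.058) and RN7SK as a covariate (0.17). The call of H1-2 was lost without NG 2, NG 3, LGCAR 1 or LGCAR 2, with adjusted p-values from 0.061 to 0.10, and with RN7SK as a covariate (0.14).

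LGCAR lay wholly below NG in 9 members, against 17.5% of all genes, and wholly above in 0, against 20.7%. At an unadjusted p under 0.05, 8 were lower and 0 higher, against 13.2% and 15.8% of all genes. The median was -0.27 against 0.01 over all genes, with 32 of 40 members negative. It was -0.16 without LGCAR 1, with 26 of 41 negative, and -0.10 at a mean of at least 5 CPM, with 5 of 8 negative. These counts of 9 and 8 among 40 stand little above the shares of all genes.

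At 5 mM glucose, cariporide (LGCAR against LG) left no member past the threshold with edgeR, where 0.00662% of all genes passed. At an unadjusted p under 0.05, 1 was lower and 3 were higher, against 5.6% and 6.32% of all genes. Here limma-voom called 0 and DESeq2 called the switching copy H2AC19. LGCAR lay above LG in 3 members and below in 1, against 10.9% and 10.5% of all genes. The median was 0.07 against 0.00 over all genes, 0.19 without LGCAR 1 (9 of 41 members negative) and -0.03 without LGCAR 3 (21 of 41 negative).

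Lower glucose with cariporide in both groups (LGCAR against CAR) left 1 member past the threshold, in a comparison where 1.65% of all genes passed, 0.973% higher and 0.675% lower. H2BC21 (chr1:149884459-149886682), which encodes an H2B whose gene can also give a polyadenylated mRNA, had 6.35, 6.58 and 7.40 CPM in NG, 4.55, 5.38 and 5.34 in CAR, 7.42, 6.46 and 7.23 in LGCAR, and 5.56, 6.05 and 5.79 in LG. LGCAR overlapped with NG, and CAR and LG lay below both. H2BC21 rose by 0.47 (log2, SE 0.111, adjusted p = 0.0428 with edgeR) from CAR to LGCAR. Without any 1 of the 6 libraries its adjusted p was between 0.060 and 0.18. The call was also lost with library totals (0.058), upper quartile scaling (0.052), no filter (0.057), the groups alone (0.089) and the ribosomal RNA share (0.24) or RN7SK (0.088) as a covariate. In 5 members LGCAR lay wholly above CAR, against 13.4% of all genes, and in 1 wholly below, against 11.9%. At an unadjusted p under 0.05, 5 were higher and 1 lower, against 9.6% and 7.98% of all genes.

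**Figure D4:**
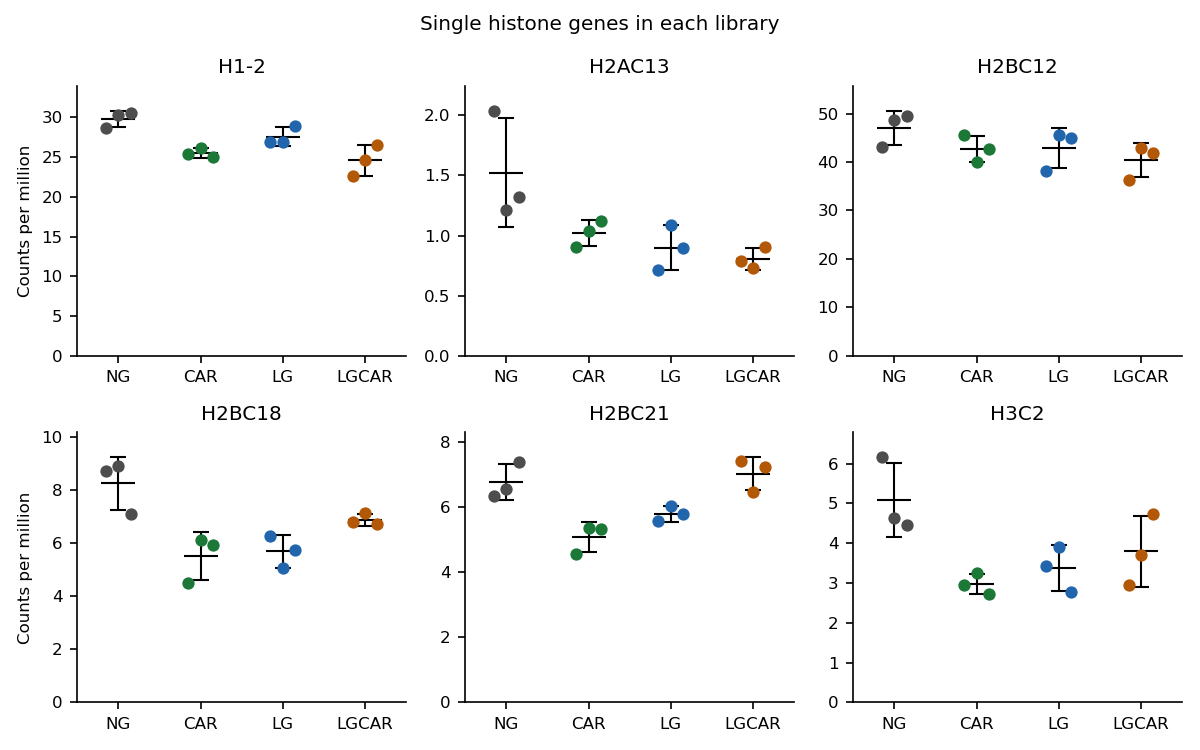
CPM (linear axis from 0) of 6 members in the 4 groups, with 1 point per library and bars for the mean and SD of 3 libraries. H2BC18 and H2BC21 have all CAR and LG libraries below all NG and LGCAR libraries, while H2BC12 overlaps between NG, CAR and LG.

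The difference between the cariporide effects at 5 and at 10 mM glucose (the interaction) passed for 0 members with edgeR, where 0.00662% of all genes passed. At an unadjusted p under 0.05, 10 members were higher and 0 lower, against 1.54% and 1.59% of all genes. Of 40 members 35 had a positive interaction, with a median of 0.45 against 0.00 over all genes, and all 11 tested H2B genes did. The NG libraries enter this term too, so a member high in NG alone gives a positive value. These counts are thus not independent of the lower values in CAR and LG. DESeq2 called H2AC19 alone and limma-voom called 0.

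The members' upstream sequences shared letters that go with class. RefSeq windows of 250 bases before the start (GRCh38.p14) were found for 64 members. The octamer ATTTGCAT, searched on both strands, stood in 14 of 18 H2B and 11 of 16 H2A windows, in 1 of 11 H3 and in 0 of 6 H1 and 0 of 13 H4 windows, against 2.03% of 27305 genes. Some H2A and H2B genes are close neighbours: H2BC21 ends at chr1:149886682 and H2AC20 starts at chr1:149886918. Windows of such neighbours can cover the same bases, and 1 match can then count for both. Counts of windows are thus not independent of each other. The letters CCAAT on either strand stood in all H1, H2A, H2B and H3 windows, in 3 of 13 H4 windows and in 37.0% of all genes. The letters TATAAA on either strand stood in 43 of the 64, against 3563 of 27305 genes. The last 130 bases before the start are shown for the 2 H2B genes that passed a test, with these letters in capitals, for H2BC18 at chr1:149812371-149812500 and for H2BC21 at chr1:149886683-149886812, both on the minus strand:
H2BC18: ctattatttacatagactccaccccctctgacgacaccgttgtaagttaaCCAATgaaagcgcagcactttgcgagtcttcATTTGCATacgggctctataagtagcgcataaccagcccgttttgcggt
H2BC21: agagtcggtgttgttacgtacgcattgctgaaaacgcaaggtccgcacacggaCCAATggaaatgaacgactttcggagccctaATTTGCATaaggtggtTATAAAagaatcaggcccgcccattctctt
A match is a description of the letters and not of binding.

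RNAs that also lack a poly(A) tail were examined beside the members. RN7SK, the 7SK RNA that holds the elongation factor P-TEFb inactive, had 331, 329 and 290 CPM in NG, 215, 283 and 211 in CAR, 218, 261 and 290 in LGCAR, and 236, 238 and 238 in LG. As for the histone sum, all 9 other libraries lay below the 3 NG libraries, the highest LGCAR library by a small margin. Its log2 fold change was -0.42 (SE 0.119) in CAR and -0.42 (SE 0.119) in LG, and neither passed the threshold with edgeR.

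Over the 12 libraries the histone sum followed RN7SK, with Pearson's r = 0.94 (permutation p = 2e-05, adjusted 0.00028) and Spearman's rho = 0.94 (permutation p = 2e-05, adjusted 0.00028). These permutations moved libraries freely between groups, and both measures were highest in NG. Their p-values thus include the difference between groups that both measures share. Without NG 1 and NG 2, the libraries farthest from the median of RN7SK, r was 0.88. With each group's mean removed, r was 0.84 (exact permutation within groups, p = 0.0054, adjusted 0.076), which misses the threshold after adjustment. RN7SK was set apart from its list after its values were seen, so p-values were adjusted over 14 measures: each of the 10 tested RNAs without a tail, the sum of those besides RN7SK, the shares of ribosomal RNA and mitochondrial mRNA, and total counts. For the other 9 RNAs r ran from -0.45 (SCARNA2) to 0.63 (SCARNA7), and from -0.38 to 0.61 with group means removed. For the ribosomal RNA share r was 0.51, for total counts -0.35, for the mitochondrial mRNA share -0.26 and for the sum 0.30, and 0.54, -0.60, -0.37 and 0.30 with group means removed. The lowest adjusted permutation p among these 13 measures was 0.19 for pooled values and 0.37 within groups.

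With the RN7SK level as a covariate, an alternative chosen after seeing the data, the median log2 fold change of the 40 members was -0.15 in CAR, -0.07 in LG and 0.01 in LGCAR, each against NG. The median interaction was then 0.12, and edgeR called 0 members in all 6 comparisons. The covariate differs between the groups, so a change that both share is taken up by it. What sets RN7SK and the histone sum side by side was not tested.

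**Figure D5:**
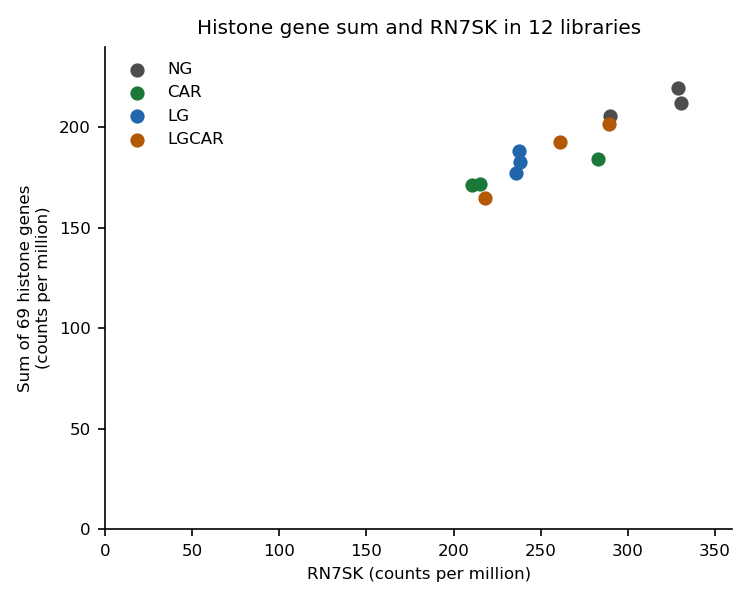
Sum of the 69 histone genes against RN7SK, both in CPM on linear axes from 0, with 1 point per library coloured by group. NG lies at the upper right and the histone sum is higher in libraries with more RN7SK (r = 0.94, and 0.84 with group means removed).

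The share of ribosomal RNA was 9.48% ± 1.67 in NG (SD, n = 3), 7.87% ± 0.723 in CAR, 10.2% ± 1.119 in LGCAR, and 8.65% ± 0.649 in LG, so LGCAR was highest on average. Its 13 tested genes had a median log2 fold change of -0.43 in CAR (12 below 0), -0.05 in LG (7 below 0) and 0.21 in LGCAR (1 below 0), and a median interaction of 0.49 (13 above 0), with 0 called by edgeR. This list holds numbered copies of the same RNAs, so reads can be split between them and their signs are not independent. Single values in CAR ran from -5.38 to 0.45. With the ribosomal RNA share as a covariate the members' median was -0.30 in CAR, -0.28 in LG and -0.33 in LGCAR against NG. The median interaction was then 0.17 in place of 0.45 (14 of 40 members negative in place of 5), and the median of LGCAR was -0.10 against LG in place of 0.07 and -0.08 against CAR in place of 0.13. The part of ribosomal RNA in these values was not tested further. Of 10 tested RNAs without a tail, edgeR called 0 in CAR, 1 in LGCAR, and 0 in LG against NG, where 0%, 8.75% and 1.73% of all genes passed. The 1 in LGCAR was RMRP, the RNA of RNase MRP, with a log2 fold change of -0.47 (adjusted p = 0.0467 with edgeR). The median of the 10 was -0.04 in CAR (7 below 0), -0.34 in LGCAR (8 below 0) and -0.43 in LG (9 below 0, and 6 lower at an unadjusted p under 0.05).

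The genes that supply and use histones were read from lists. Against NG, 0% of all tested genes were called in CAR, 1.73% in LG and 8.75% in LGCAR, as a measure for the calls within lists. The replication-independent variants, whose mRNAs are mostly polyadenylated, had a median of -0.05 in CAR, -0.03 in LG and -0.09 in LGCAR over 10 tested genes. Of these 0 were called in CAR or LG. In LGCAR, H2AZ2 rose by 0.28, and H2AX fell by 0.22 and H3-3B by 0.18 (log2, adjusted p = 0.0341, 0.0473 and 0.0486 with edgeR).

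Among 13 tested genes of histone transcription, 2 fell in LG: CDC25A, a phosphatase that activates CDK2, by 0.36 and CCNE1, the cyclin E gene, by 0.46 (log2, adjusted p = 0.0035 and 0.028 with edgeR). CCNE1 also fell in LGCAR, by 0.39 (adjusted p = 0.029 with edgeR). It had 10.2, 9.82 and 10.1 CPM in NG, 8.09, 9.84 and 8.95 in CAR, 7.27, 7.52 and 8.19 in LGCAR, and 7.41, 7.87 and 6.64 in LG, so LG and LGCAR lay below NG without overlap. Of 17 genes of 3′ end processing 0 were called in any comparison with NG. SLBP, the stem-loop binding protein, had 77.8, 79.5 and 87.6 in NG, 84.5, 72.3 and 70.3 in CAR, 67.4, 70.9 and 69.6 in LGCAR, and 64.6, 74.0 and 74.7 in LG, with a log2 fold change of -0.24 (SE 0.0745, adjusted p = 0.056 with edgeR) in LGCAR against NG.

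Of 36 tested genes of S phase DNA synthesis, 0 were called in CAR, 3 fell in LG and 4 fell in LGCAR, each against NG. Of all tested genes 0.728% fell in LG and 4.12% in LGCAR. The log2 fold change was negative for 21 of the 36 in CAR, 32 in LG and 26 in LGCAR. At an unadjusted p under 0.05, 11 were lower and 0 higher in LG, against 7.07% and 8.18% of all genes. In LGCAR 8 were lower and 1 higher, against 13.2% and 15.8%. RRM2, a subunit of ribonucleotide reductase, had 114, 124 and 129 CPM in NG, 117, 126 and 128 in CAR, 101, 102 and 110 in LGCAR, and 93.8, 101 and 100 in LG. CAR overlapped with NG, and LG and LGCAR lay below both. It fell by 0.31 in LG and by 0.22 in LGCAR (log2, adjusted p = 0.012 and 0.032 with edgeR). FEN1, a flap nuclease, and CDC6, which loads the replicative helicase, fell by 0.28 and 0.29 in LG (adjusted p = 0.0057 and 0.011 with edgeR). The list's median was -0.02 in CAR, -0.07 in LG and -0.09 in LGCAR. Of 20 tested genes of G2 and mitosis edgeR called 0 in each of these 3 comparisons.

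Of 21 tested genes of histone mRNA export, translation and decay, 3 changed in LGCAR against NG and 0 in CAR or LG: CTIF, a translation factor, rose by 0.24, TUT7, a uridyl transferase, rose by 0.26, and NXF1, an export receptor, fell by 0.23 (log2, adjusted p = 0.033, 0.035 and 0.028 with edgeR). Of 25 chaperone and import genes 1 changed in LGCAR against NG: DAXX, the chaperone of H3.3, fell by 0.26 (log2, adjusted p = 0.010 with edgeR). Of all tested genes 8.75% were called in LGCAR against NG.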

How the data were processed

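Stranded total RNA libraries were made with the NEBNext Ultra II Directional kit after Trizol extraction, per the labels' protocols. The authors deposited counts per gene symbol, 1 file per library. GATK, Salmon, STAR and fastp, with GRCh38, are named in the submitters' processing notes; the labels do not state which tool made the counts, how reads that fit several genes were handled or whether strand was used. From the counts, edgeR 4.0.16 (R 4.3.3, filterByExpr, TMM, robust quasi-likelihood test over all 4 groups, Benjamini-Hochberg) gave log2 fold changes. The SE is the fold change divided by the square root of F. The test was run on counts simulated with the same spread for every gene and no switching between copies. That check therefore does not cover switching copies or genes with a larger spread. DESeq2 1.42.0 and limma 3.58.1 were alternatives. Library totals were 18069004 to 24837409. The members and lists were chosen with earlier results of these data known. Values per library are given for the 3 members with the most counts per class, for called members and where a result turns on them; of other lists up to 2 called genes per comparison were named, and H3-3B, TUT7 and RN7SK beyond this after their values were seen. In GENCODE 29, 9 tested members share exon bases with another gene: 88.04% of them in H2AC17 and 44.65% in H3C12 on the same strand, and on the other 28.24% in H2BC6 and 5.54% to 10.45% in H2AC21, H2BC15, H2BC18, H3C15, H4C14 and H4C15. Sequences are from GENCODE 29 (65 members matched by gene ID, 4 by older symbol) and from RefSeq GRCh38.p14. Replicates of a group differed by 2.82 to 24.6 times sampling noise (chi-square per degree of freedom). Same-numbered replicates did not deviate together.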

Additional observations from a re-analysis of the deposited data

Results flagged for a closer look

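For H2BC18, all CAR libraries lay below NG and all LGCAR libraries above LG, and the log2 interaction was 0.85. Read the other way, LG lay below NG and LGCAR above CAR, with the same 0.85. For H2BC21 the same held in both directions, with an interaction of 0.70. For H2BC3 (12 to 34 counts a library) lower glucose went with lower values without cariporide and with higher values in its presence, with an interaction of 1.39. The interaction term passed the threshold with edgeR for none of the 3 genes, with an adjusted p of 0.87 for H2BC18 and H2BC21 and 0.9999 for H2BC3.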

How the results depend on the processing

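The number of members called, 0, 1, 2, 0, 1 and 0 for CAR, LG and LGCAR against NG, LGCAR against LG, LGCAR against CAR and the interaction, moved in 41 and kept within 1.5 times in 78 of the alternatives' values. For CAR against NG, LGCAR against LG and the interaction DESeq2 alone moved it. DESeq2 called 1, 2, 1, 1, 2 and 1, H2AC19 among them in all but LGCAR against NG, where it called H1-2. In LG against NG 0 were called with a replicate block, the ribosomal RNA or RN7SK covariate, limma-voom or the groups compared alone. In LGCAR against CAR 0 were called with library totals, upper quartile scaling, no filter, the replicate block, either covariate or the groups alone. In LGCAR against NG 1 was called at a mean of at least 5 CPM, with the block or limma-voom, 4 with the ribosomal RNA covariate (H3C2 and H3C3 among them), 5 with the groups alone and 0 with the RN7SK covariate. Leaving out 1 library gave 0 in LG against NG and in LGCAR against CAR, and 0 to 2 in LGCAR against NG. Same-numbered replicates had correlations of deviations from -0.16 to 0.18, and 3 of 12 libraries matched best with their own number, so the replicate block rests on numbers alone.

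Over all genes, calls were 261 in LG against NG (147 with the replicate block, 586 with the ribosomal RNA covariate, 8 with the RN7SK covariate, 118 alone, 83 to 364 without 1 library). They were 1322 in LGCAR against NG (682 with the block, 432 with RN7SK, 3542 alone, 136 to 1544) and 249 in LGCAR against CAR (391 without a filter, 135 with the block, 18 with ribosomal RNA, 92 with RN7SK, 419 with DESeq2, 51 to 188). They were 1 in LGCAR against LG (15 without a filter, 20 with DESeq2, 1 to 3), 0 in CAR against NG (2 with DESeq2, 0 to 2) and 1 for the interaction (2 without a filter, 5 with DESeq2, 0 with either covariate, 1 to 3). With library totals the higher share of calls went from 57.9% to 69.5% in LG against NG and from 59.0% to 26.8% in LGCAR against CAR; upper quartile scaling gave 44.4% there and 42.0% in place of 53.0% in LGCAR against NG.

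The log2 class ratios below are in the order CAR, LG and LGCAR against NG, then LGCAR against CAR and against LG, then the interaction, where they moved by more than the spread. Without H1-2, H1 had -0.32 (CAR), 0.0063 (LGCAR, reversed), 0.33, 0.10 and 0.42. Without H2BC12, H2B had -0.38, -0.31, 0.27, 0.20 and 0.57 (LGCAR against NG unmoved), and without H4C15 the H4 interaction was 0.22. Leaving out H2AC18 alone gave H2A 0.18, 0.0051, -0.40, -0.22 and -0.41 for these 5, since H2AC19 then keeps the pair's counts in 3 libraries only; with both copies out no H2A ratio moved. The mean log2(CPM + 0.5) of the tested members gave H2B -0.37, -0.29, 0.20 (against CAR) and 0.50 (interaction), H3 -0.17, -0.18 and 0.28 (interaction), and H4 -0.19, -0.21, -0.092, -0.069 and 0.12. Single copies of the identical pairs enter these means. Leaving out 1 library moved no class ratio beyond the spread. Of 1828 values of named members, 84 that were not called changed sign. Depth limits weakly counted members such as H2AC13, with 13 to 43 counts a library.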
